A study of Homo sapiens with 9 samples.

Results

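Fatty acid synthesis, desaturation and oxidation were followed through 36 genes in KGN cells, a human granulosa cell tumour line used as a model of the cells that surround the oocyte. The genes were chosen by symbol from the 15983 rows of the count table: 20 of synthesis (ACLY to DGAT2) and 16 of breakdown (CPT1A to PPARA, with the lipases), and all 36 had a row. RNA sequencing covered 9 libraries of wild-type KGN cells fasted for 12 h and then kept for 72 h in solvent (control, 3 libraries), in 0.5 µg/ml insulin (the lower dose, 3 libraries) or in 1 µg/ml insulin (the higher dose, 3 libraries). Libraries are called by group and title number. All groups share this tumour line, so they hold no primary granulosa cell, and the labels do not say that the replicates were separate cultures. The p-values therefore set a difference between groups only against the spread of these samples, and that spread may be technical.

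Fatty acids are built in the cytosol from acetyl-CoA: ACLY and ACSS2 supply it, ACACA and ACACB carboxylate it, FASN assembles palmitate, and elongases and desaturases lengthen and unsaturate the chain. In breakdown, lipases free the fatty acid from stored fat, CPT1A and CPT2 carry it into the mitochondrion, and a cycle of dehydrogenases, hydratases and thiolases cuts it to acetyl-CoA. In liver and fat, insulin is known to raise SREBF1 and its lipogenic targets and to restrain lipolysis and CPT1A activity, and in the ovary fatty acid oxidation feeds the follicle and the oocyte.

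All 36 genes passed the filter on low counts in edgeR, which kept 12665 genes. Library totals ran from 18965722 to 20446405 counts, and in the smallest library 0 counts would allow up to 0.158 CPM (counts scaled to a common library total), counting error only. All 9 granulosa markers listed were tested, with summed levels from 315 to 356 CPM, and the lowest of them was INHA at 0.655 ± 0.266 CPM (SD, n = 9). Markers of cells that store or export fat were scarce: those of adipocytes summed to at most 0.889 CPM (3 of 5 with a row) and those of hepatocytes to at most 0.370 CPM (2 of 4 with a row). The immune, endothelial and epithelial lists reached at most 3.35, 2.20 and 6.43 CPM. The library lower dose 1 stood apart: it held the highest level of 19.8% of all tested genes, where the other libraries held between 7.84% and 14.0%. Its departure from the mean of the other 8 libraries went with the GC content of the transcript (Spearman rho = 0.509 across 12401 genes). In the other libraries this rho lay between -0.307 (control 3) and 0.0960. The values of FASN, SREBF1 and MGLL, which moved by over 1.5 times without it in comparisons with the lower dose, are also given without it. In bulk libraries fewer cells and less RNA per cell cannot be told apart.

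The desaturases FADS2 and SCD had the highest levels of the synthesis genes, and FADS1 and FADS2 moved together across libraries. The DNA upstream of 1 RefSeq start of each of these 3 genes is therefore shown. It was read from RefSeq promoters on GRCh38.p14 in a window of 250 bases before that start and kept to the stretch outside annotated exons. Capitals mark a CCAAT box (the NF-Y motif) in SCD and a GC box (GGGCGG or its reverse complement, the motif of Sp1) in FADS1.
FADS1 (chr11:61817198-61817253, minus strand): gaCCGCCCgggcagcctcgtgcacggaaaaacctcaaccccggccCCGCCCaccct
FADS2 (chr11:61816149-61816202, plus strand): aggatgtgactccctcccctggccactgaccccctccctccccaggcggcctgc
SCD (chr10:100346983-100347123, plus strand): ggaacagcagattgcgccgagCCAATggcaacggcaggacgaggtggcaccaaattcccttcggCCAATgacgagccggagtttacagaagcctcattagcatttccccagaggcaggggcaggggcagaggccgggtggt
The FADS2 stretch held neither motif. The RefSeq starts used for FADS1 and FADS2 lie 800 bases apart on opposite strands. Both windows lie within the annotated FADS1 gene and within the annotated FADS2 gene. Each gene begins further upstream of its window, FADS2 at 61792980 and FADS1, on the minus strand, at 61829318. Other starts of these genes were not searched. Promoter windows were matched for 32 of the 36 genes and searched on both strands, and a base in 2 matches counted for each. FASN, DGAT1, DGAT2 and MGLL had no window and were not searched. Each member was kept to 1 window, while the promoters they are set against are all entries, where a gene may appear more than once. A GC box was found in 25 of the 32, against 42.6% of 35116 promoters, and a CCAAT box in 10 of the 32, against 32.0%. TCACNCCAC, the sterol regulatory element bound by SREBP, was present in PNPLA2 alone of the 32, against 0.883% of promoters. The E-box CACGTG was present in ELOVL5 alone (6.34% of promoters), and TCAAGGTCA, the site of oestrogen-related receptors, in 0 of 32 (0.319%).

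Levels of different genes are compared in FPKM, the authors' counts scaled for gene length and library total, as the lowest, median and highest of the 9 libraries. FADS2, the delta-6 desaturase, was the most abundant of the 36 at 140, 151 and 166 FPKM. SCD, which makes oleate, reached 124, 132 and 155 FPKM and overlapped ACADVL but not PNPLA2 in range. ACLY followed at 90.9, 95.9 and 103 FPKM. FASN, the palmitate synthase, stood at 52.3, 58.9 and 76.3 FPKM, overlapping ELOVL1 (51.5, 56.0 and 57.9) and ELOVL5 (51.7, 54.1 and 58.4), elongases of saturated and of polyunsaturated chains. FADS1, the delta-5 desaturase, was measured at 44.0, 47.0 and 50.02 FPKM. Several synthesis enzymes are members of pairs, and the pairs were far from equal. ACACA, the cytosolic acetyl-CoA carboxylase, was 11.3 to 14.4 times as high as ACACB, the form at the mitochondrial surface that restrains CPT1A. DGAT1 was 10.3 to 17.6 times as high as DGAT2, the other enzyme of the last step to triglyceride. ELOVL6, which extends palmitate, stood at 4.99 FPKM at the median, and ELOVL5 was 10.6 to 11.6 times as high. DGAT2 was the lowest of all at 0.508, 0.660 and 0.949 FPKM, from 24 to 47 counts a library, and ACACB (0.953, 1.02 and 1.26) and GPAM, which starts glycerolipid synthesis (1.84, 2.17 and 2.39), were next.

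**Figure D1:**
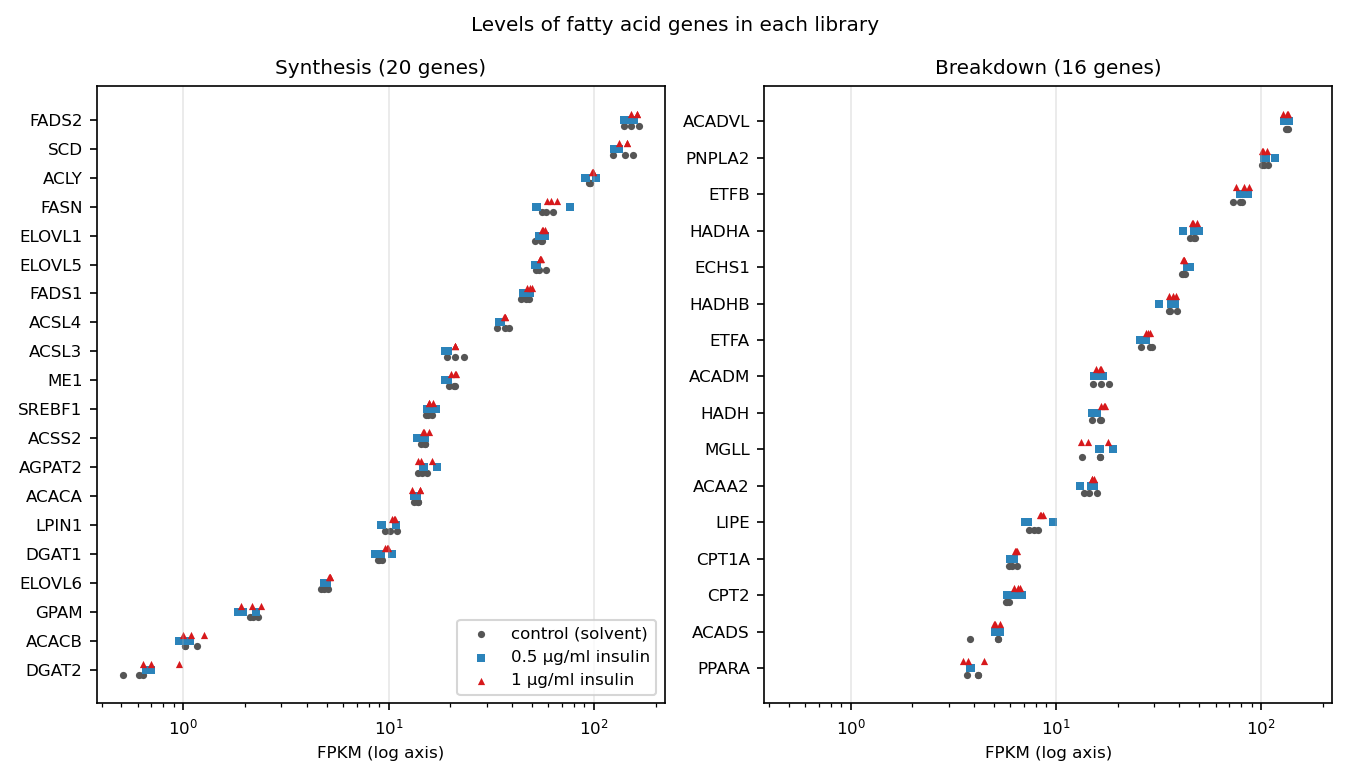
FPKM (log axis) of each of the 20 synthesis genes and 16 breakdown genes, 1 point per library, coloured by group and ordered by the median over the 9 libraries. FADS2 and ACADVL lead their panels at 151 and 133 FPKM, and the points of the 3 groups lie close together for most genes.

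In breakdown, ACADVL, the dehydrogenase of very long chains, led at 128, 133 and 136 FPKM. It was 7.37 to 8.71 times as high as ACADM, the medium-chain enzyme, and 24.1 to 34.5 times as high as ACADS, the short-chain enzyme. PNPLA2, adipose triglyceride lipase, was the next at 101, 103 and 117 FPKM, 12.0 to 14.5 times LIPE, hormone-sensitive lipase, and 5.70 to 7.75 times MGLL, which cleaves monoglycerides. Of the PNPLA2 transcript 12.3% matches AP006621.1, an overlapping gene on the opposite strand, so its level and these ratios are less certain. The levels of ACAA2 and ETFB are less certain too, as 11.5% and 9.91% of their transcripts match overlapping genes on the same strand (AC090227.1 and AC008750.8). Exons of LIPE-AS1, on the opposite strand, overlap 9.6% of the exon bases of LIPE, and those of RAI1 overlap 6.92% of SREBF1. ETFB and ETFA, the subunits of the flavoprotein that takes electrons from the dehydrogenases, had medians of 79.1 and 27.5 FPKM, and HADHA and HADHB, the subunits of the trifunctional protein, 47.0 and 36.5 FPKM. The hydratase ECHS1 had a median of 42.3 FPKM. ACADM, HADH and ACAA2, further enzymes of the cycle, overlapped each other, with medians of 16.5, 16.5 and 14.9 FPKM. The carnitine transferases CPT1A (5.90, 6.24 and 6.46) and CPT2 (5.69, 6.23 and 6.82) could not be ordered, with a ratio between 0.914 and 1.13. PPARA, the fatty acid sensor that drives these genes in liver, was the lowest of the breakdown group at 3.53, 3.82 and 4.45 FPKM. In the order of all 36 levels, 15 of the 35 pairs of neighbours had ranges that did not overlap. The median level of the synthesis genes was 18.01 FPKM and that of the breakdown genes 16.5 FPKM.

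Levels at both doses lay close to control, and 0 of the 36 genes were called at an adjusted p under 0.05 in any comparison (quasi-likelihood test of edgeR, Benjamini-Hochberg over 12665 genes). Over all tested genes the share called was 0% in each comparison as well. At an unadjusted p under 0.05 the count of the 36 was 1 for the lower dose against control (6.08% of all genes), 0 for the higher dose against control (2.35%) and 2 for the higher against the lower dose (5.64%). DESeq2 without the count filter called 0 of the 36, with 1, 0 and 1 at an unadjusted p under 0.05, where 573, 173 and 487 of 15981 genes were. A test for any difference among the 3 groups also called 0, with ACSL3 alone at an unadjusted p under 0.05 (4.43% of all genes). The intervals were narrow: the 95% interval of the fold change lay within 1.25-fold either way for 32, 33 and 33 of the 36, against 70.2%, 72.9% and 70.6% of all tested genes. It lay within 1.5-fold for all but DGAT2 in each comparison.

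**Figure D2:**
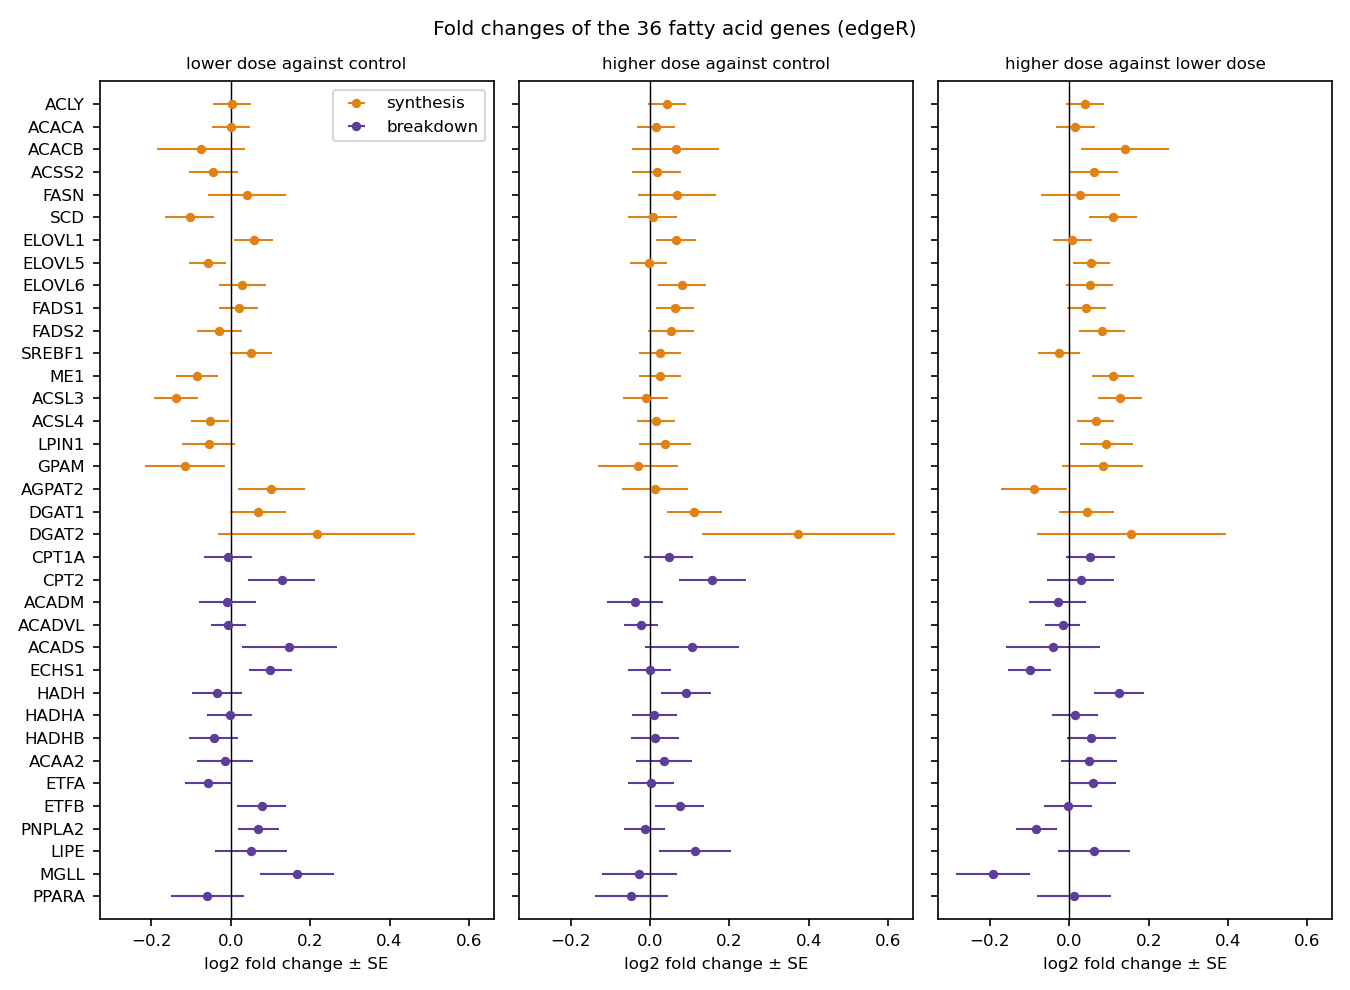
Log2 fold change with its standard error for each of the 36 genes in the 3 comparisons, synthesis genes above and breakdown genes below. Most points lie within 0.2 of 0, and DGAT2, the least abundant gene, has the widest error bars.

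The first comparison sets cells given 0.5 µg/ml insulin against cells given solvent. The synthesis genes divided evenly, with 10 of 20 above 0 and a median log2 fold change of -0.01, and 7 of 16 breakdown genes lay above 0 with a median of -0.00461 (51.9% of all tested genes lay above 0, median 0.00447). ACSL3, which activates long-chain fatty acids for lipid synthesis, had the smallest p of the 36. Its level was 108, 117 and 130 CPM in control and 108, 109 and 106 CPM with insulin. The ranges overlapped because control 1 was as low as the treated libraries. The log2 fold change of ACSL3 was -0.14 ± 0.06 (SE), and its adjusted p was 0.781 (quasi-likelihood test of edgeR, Benjamini-Hochberg). It was -0.068 without control 3 and -0.067 with each library's trend on GC content removed. SCD was measured at 654, 738 and 807 CPM in control and 700.2, 657 and 690 CPM with insulin, so control held both the highest and the lowest library, and its log2 fold change was -0.10 ± 0.06 (SE). That value was -0.030 without control 3 and -0.18 without control 1. MGLL stood at 88.5, 88.3 and 71.6 CPM in control and 103, 88.4 and 87.5 CPM with insulin. Control 3 was low and lower dose 1 high, and the log2 fold change was 0.17 ± 0.09 (SE), or 0.069 without control 3 and 0.087 without lower dose 1. ECHS1 was measured at 54.6, 52.5 and 53.2 CPM in control and 56.1, 57.6 and 58.0 CPM with insulin, without overlap (log2 fold change 0.10 ± 0.05, SE). ECHS1 and DGAT2 were the members without overlap, both higher, which is 5.56% of the 36 against 5.1% of all genes. No member was lower without overlap (5.61% of all genes). For DGAT2 the gap was small, from 32 counts in control 2 to 33 in lower dose 1. With the GC trend removed the ECHS1 value was 0.046 ± 0.055 (SE). Then 0 of the 16 breakdown genes and 2 of the 20 synthesis genes were higher without overlap, against 5.61% of all genes. Lower without overlap were 0 of the 16 and 1 of the 20, where 677 of 12665 genes were. The adjusted p of SCD, MGLL and ECHS1 was between 0.807 and 0.808 (quasi-likelihood test of edgeR, Benjamini-Hochberg).

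SREBF1, the lipogenic transcription factor, was measured at 77.8, 83.1 and 78.6 CPM in control, 87.8, 78.7 and 81.6 CPM at the lower dose, and 83.6, 80.0 and 80.0 CPM at the higher dose. The 3 groups overlapped, and its log2 fold change was 0.05 ± 0.05 at the lower and 0.02 ± 0.05 at the higher dose against control (SE). Without lower dose 1 the lower-dose value of SREBF1 was 0.0060, and with any 1 library left out the higher-dose value ran from 0.0031 to 0.056. CPT1A, the gate of mitochondrial import, was measured at 35.98, 34.6 and 37.7 CPM in control, 35.99, 36.7 and 35.1 CPM at the lower dose and 36.8, 37.3 and 37.8 CPM at the higher dose. Against control its log2 fold change was -0.00669 ± 0.06 and 0.05 ± 0.06 (SE), and the 95% intervals of the fold ran from 0.911 to 1.09 and from 0.946 to 1.13. With any 1 library left out, the higher-dose value of CPT1A ran from 0.017 to 0.080. The doses did not overlap for CPT1A, but the gap between them, from 36.68 to 36.77 CPM, was small.

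FASN carried the widest spread among the abundant members. Its level was 476, 491 and 533 CPM in control, 652, 444 and 447 CPM at the lower dose and 496, 521 and 555 CPM at the higher dose. Lower dose 1 was the highest of the 9 libraries and lower dose 2 and 3 were the lowest pair. The log2 fold change against control was 0.04 ± 0.10 at the lower dose and 0.07 ± 0.10 at the higher dose (SE), the latter between 0.025 and 0.12 with any 1 library left out. Without lower dose 1, the value at the lower dose turned to -0.17 ± 0.05 (SE), with an unadjusted p of 0.00401 and its adjusted p was 0.604 (quasi-likelihood test of edgeR, Benjamini-Hochberg). The higher against the lower dose gave 0.03 ± 0.10 for FASN with all libraries and 0.24 ± 0.05 (SE) without lower dose 1, and the adjusted p was 0.166 (quasi-likelihood test of edgeR, Benjamini-Hochberg). With each library's trend on GC content removed, the FASN values were -0.04 ± 0.08 against control and 0.11 ± 0.08 between the doses (SE).

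**Figure D3:**
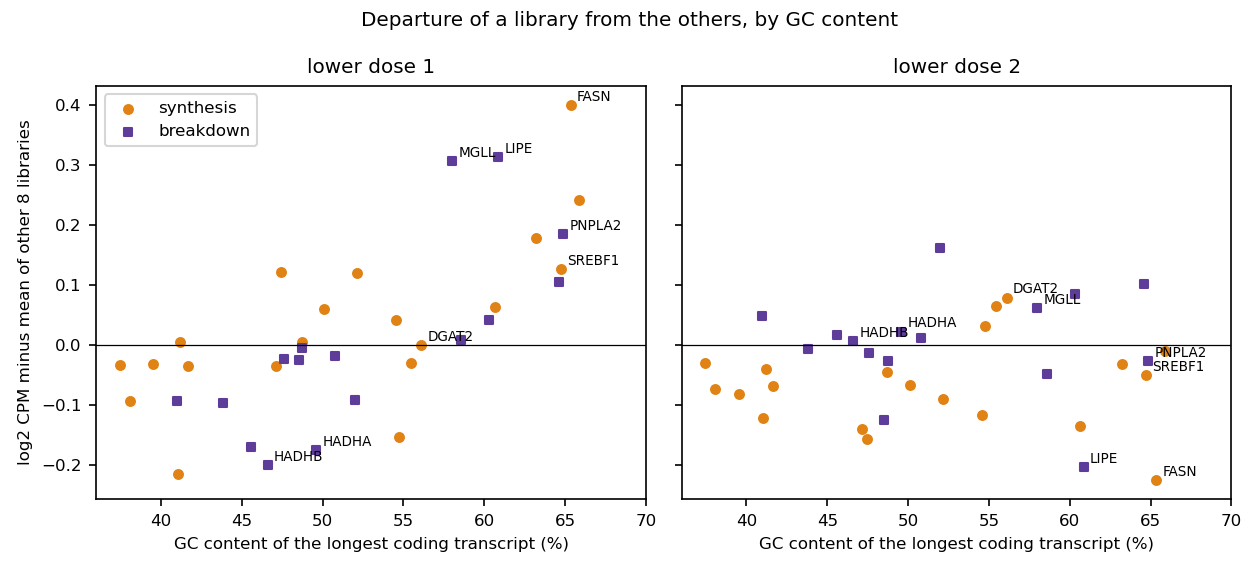
Departure of lower dose 1 (left) and lower dose 2 (right) from the mean of the other 8 libraries, in log2 CPM, against the GC content of each member's longest coding transcript, synthesis genes as circles and breakdown genes as squares. In lower dose 1 the points climb with GC content, with HADHB at -0.20 and FASN at 0.40 (rho = 0.745), and in lower dose 2 rho is 0.108.

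Lower dose 1 held the highest level of 5 of the 20 synthesis genes and 4 of the 16 breakdown genes, against 19.8% of all genes, and the lowest of 2 and 3, against 17.8%. Its departure passed 0.2 in log2 CPM for 5 of the 36 genes and for 22.3% of all genes. FASN (0.40), LIPE (0.31), MGLL (0.31) and AGPAT2 (0.24), which makes phosphatidic acid, lay above the mean of the other libraries in log2 CPM. GPAM (-0.21), HADHB (-0.20), HADHA (-0.17) and ACAA2 (-0.17), the thiolase, lay below it. Across the 36 genes, whose GC content ran from 37.4% to 65.9%, the departure went with GC content (Spearman rho = 0.745, n = 36 genes of 1 library).

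The second comparison sets cells given 1 µg/ml insulin against cells given solvent. More members lay above 0 than below: 17 of 20 synthesis genes, with a median log2 fold change of 0.03, and 10 of 16 breakdown genes, with a median of 0.01, against 49.8% of all tested genes and a median of -0.000217. Groups did not overlap for 7 members, all higher with insulin, which is 19.4% of the 36 against 3.81% of all genes, and 0 were lower (3.92% of all genes). They were ACLY, ELOVL6, DGAT1 and DGAT2 of synthesis and CPT2, HADH and LIPE of breakdown. DGAT1 was measured at 34.5, 34.1 and 35.8 CPM in control and 37.5, 38.4 and 37.0 CPM with insulin, a log2 fold change of 0.11 ± 0.07 (SE). DGAT2 stood at 1.27, 1.58 and 1.51 CPM in control and 2.35, 1.59 and 1.73 CPM with insulin, with higher dose 1 well above the rest. Its log2 fold change was 0.37 ± 0.24 (SE), and 0.19 without higher dose 1. Control 2 and higher dose 2 both held 32 counts of DGAT2, so its groups were free of overlap only by scaling (1.580 and 1.588 CPM). Of the DGAT1 and DGAT2 transcripts, 12.1% and 17.4% match a transcript of another gene (AC233992.1 and AP003031.1), so their counts are less certain.

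CPT2 was measured at 15.6, 15.2 and 14.9 CPM in control and 16.3, 17.1 and 17.5 CPM at the higher dose (log2 fold change 0.16 ± 0.08, SE). It had the smallest unadjusted p of the 36 in this comparison, 0.0783, and 27.1% of its transcript matches AL606760.2, an overlapping gene on the opposite strand, while the strand setting of the counting is not given in the sources used here. HADH, the 3-hydroxyacyl-CoA dehydrogenase of short chains, stood at 32.4, 35.6 and 35.4 CPM in control, 34.4, 32.3 and 34.3 CPM at the lower dose and 37.3, 36.9 and 35.8 CPM at the higher dose. The higher dose lay above both other groups in every library, with log2 fold changes of 0.09 ± 0.06 against control and 0.12 ± 0.06 against the lower dose (SE). The first of these was 0.048 without control 1. SCD at the higher dose was 689, 762 and 758 CPM, within the range of control, with a log2 fold change of 0.00629 ± 0.06 (SE). The adjusted p was 1.00 for every member in this comparison (quasi-likelihood test of edgeR, Benjamini-Hochberg).

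Between the doses, synthesis genes lay almost all above 0 at the higher dose: 18 of 20, with a median log2 fold change of 0.06, where 9 of 16 breakdown genes lay above 0 with a median of 0.01 (49.5% of all genes, median -0.00116). This comparison shares the higher-dose libraries with the one before. ACSL3 at the higher dose was 118 CPM in each library, above the lower dose and within the control range, a log2 fold change of 0.13 ± 0.06 (SE). ME1, the malic enzyme that supplies NADPH, was measured at 66.4, 64.4 and 63.4 CPM at the lower and 71.4, 67.8 and 70.5 CPM at the higher dose (0.11 ± 0.05, SE), and control held 69.997, 65.8 and 70.3 CPM. With the GC trend removed, ACSL3 stood at 0.078 and ME1 at 0.067. The SCD value was 0.11 ± 0.06 and that of SREBF1 -0.03 ± 0.05 (0.019 without lower dose 1), and CPT1A stood at 0.05 ± 0.06 (SE). MGLL went the other way, at 95.6, 77.2 and 71.0 CPM with the higher dose, a log2 fold change of -0.19 ± 0.09 (SE). The MGLL value was -0.11 without lower dose 1, -0.10 without higher dose 3 and -0.33 without higher dose 1. The adjusted p of ACSL3, ME1, MGLL and HADH was 0.850 (quasi-likelihood test of edgeR, Benjamini-Hochberg). The doses did not overlap for 7 members that were higher at the higher dose (19.4%, against 5.85% of all genes), namely ELOVL5, ELOVL6, ME1, ACSL3, ACSL4, CPT1A and HADH, and for 1 that was lower, ECHS1 (2.78%, against 6.31%).

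Comparisons that use the lower dose were repeated without lower dose 1, and the counts given here were added after seeing the data. Against control, 5 of 20 synthesis genes then lay above 0, in place of 10, with a median of -0.06, and 10 of 16 breakdown genes, with a median of 0.03. Between the doses 18 of 20 synthesis genes lay above 0 with a median of 0.10. ELOVL1 and AGPAT2 were the exceptions, where SREBF1 and AGPAT2 were with every library. The doses did not overlap for 13 of the 20, all higher (13% of all genes), against 5 with every library. Of the breakdown genes 5 of 16 lay above 0. Without overlap, 3 of the 16 were higher and 2 lower, where 1674 of 12754 genes were lower. Still 0 members passed adjustment, and the smallest adjusted p of a synthesis gene was 0.166, that of FASN (quasi-likelihood test of edgeR, Benjamini-Hochberg). Next by p among all members were LIPE, a breakdown gene, and LPIN1, the phosphatidate phosphatase. Their log2 fold changes between the doses were 0.22 ± 0.07 and 0.18 ± 0.06 (SE). The adjusted p was 0.365 and 0.447 (quasi-likelihood test of edgeR, Benjamini-Hochberg). With the GC trend removed and every library kept, the values were 0.12 ± 0.08 and 0.09 ± 0.07 (SE). With the GC trend of each library removed in place of leaving out the library, 6 of 20 synthesis genes lay above 0 at the lower dose and 19 of 20 at the higher dose against control, and between the doses 19 of 20 synthesis and 12 of 16 breakdown genes did. The doses then did not overlap for 3 of the 20 synthesis genes, all higher (5.68% of all genes). Of the 16 breakdown genes 3 were higher and 1 lower without overlap, where 731 of 12665 genes were lower. FADS2 alone then had an unadjusted p under 0.05 between the doses (3.92% of all genes).

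Each group of genes was also summed up per library as the average over its genes of log2 CPM centred on each gene's own mean. For synthesis the values were -0.06, -0.01 and 0.03 in control, 0.03, -0.06 and -0.05 at the lower dose and 0.02, 0.06 and 0.03 at the higher dose. The higher-dose libraries were all above 0, and control 3 and lower dose 1 lay among them. For breakdown the values were 0.01, -0.07 and -0.00364 in control, 0.00360, 0.00384 and 0.02 at the lower dose and -0.00519, 0.02 and 0.02 at the higher dose, with control 2 the lowest. The synthesis value minus the breakdown value averaged 0.00751 ± 0.07 in control, -0.03 ± 0.05 at the lower dose and 0.03 ± 0.02 at the higher dose (SD, n = 3 each). The 3 groups overlapped: control ran from -0.07 to 0.06, the lower dose from -0.07 to 0.03 and the higher dose from 0.00659 to 0.04. These scores over chosen members carry no test.

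**Figure D4:**
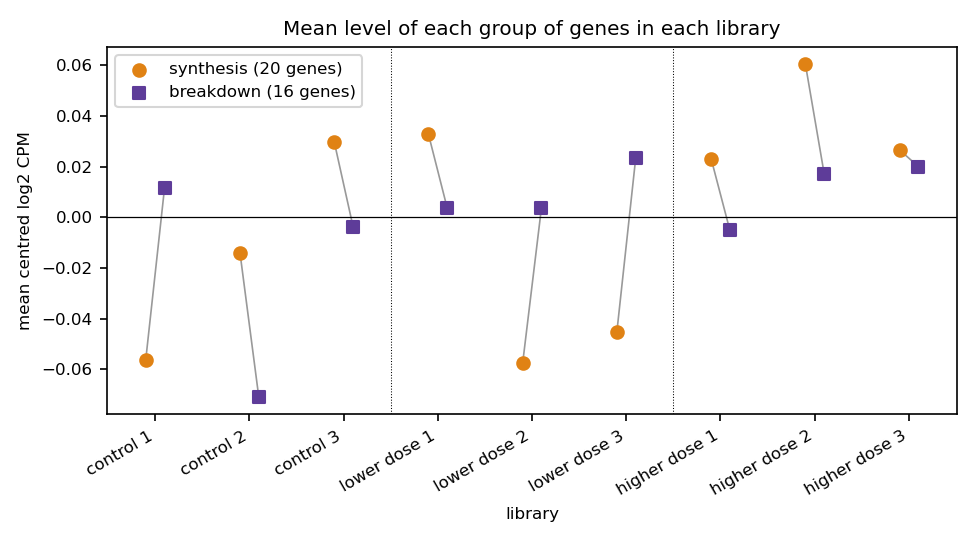
Mean centred log2 CPM of the 20 synthesis genes (circles) and the 16 breakdown genes (squares) in each of the 9 libraries, with a line joining the pair of a library. The synthesis values of the 3 higher-dose libraries lie between 0.02 and 0.06, and control and the lower dose each span values below and above 0.

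Genes that act as partners were compared across the 9 libraries in log2 CPM, a family of 3 pairs chosen with these data known. The adjusted p covers these 3 pairs only and does not account for that choice. The permutation also treats the 9 libraries as exchangeable, although they form 3 groups. FADS1 and FADS2, neighbours on chromosome 11 (61799625 to 61829318 and 61792980 to 61867354, hg38), moved together (Pearson r = 0.935, exact permutation p = 0.000463, adjusted p = 0.00139; Spearman rho = 0.867, exact permutation p = 0.00451, adjusted p = 0.0135). Both were low in control 1 (200.4 and 502 CPM) and high in higher dose 2 (226 and 581 CPM). Without those 2 libraries, the farthest from the FADS1 median, r was 0.931, and without lower dose 1 it was 0.937. Overlapping exons make up 4.79% of FADS1 and lie on the opposite strand. The RefSeq starts used for HADHA and HADHB lie 307 bases apart on opposite strands of chromosome 2, and their promoter windows share 194 bases. Their r was 0.771 (exact permutation p = 0.0221, adjusted p = 0.0331), with rho = 0.500 (exact permutation p = 0.178, adjusted p = 0.267). It rested on lower dose 1 and 3, the extremes at 123 and 148 CPM of HADHA: without them r was 0.236, and without lower dose 1 alone 0.399. ETFA and ETFB, on different chromosomes, gave r = 0.405 (exact permutation p = 0.280, adjusted p = 0.280) and rho = 0.3 (exact permutation p = 0.437, adjusted p = 0.437), and without the 2 farthest libraries r = 0.295. All of these p-values are two-sided. These libraries share depth and RNA composition, and the median r over all 630 pairs of members was 0.111.

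**Figure D5:**
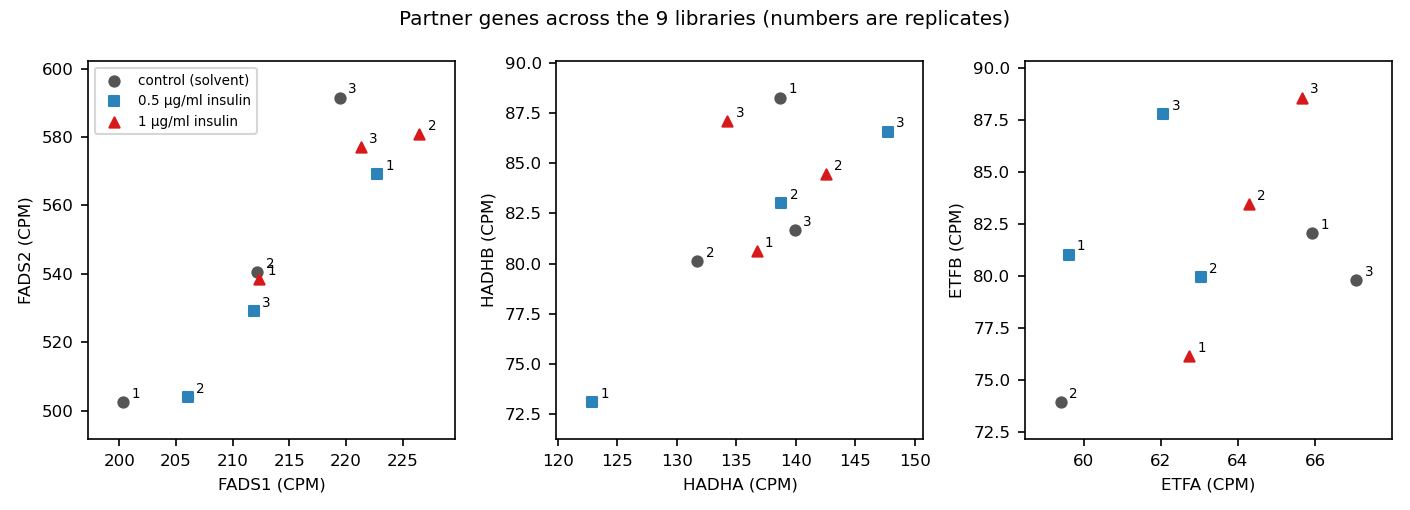
CPM of FADS2 against FADS1, HADHB against HADHA and ETFB against ETFA, 1 point per library, coloured by group and numbered by replicate. FADS1 and FADS2 lie along a line through all 3 groups (r = 0.935), and lower dose 1 is the low extreme of HADHA and HADHB.

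As a description of the whole set, the median r was 0.282 among the 190 pairs of synthesis genes, 0.152 among the 120 pairs of breakdown genes and 0.00852 between the groups. The largest values of all pairs were 0.964 for ACLY and LIPE and 0.947 for ACSL3 and ACSL4, both acyl-CoA synthetases. FADS2 with LPIN1 gave 0.907 and SCD with FADS2 0.901. These were picked for their size and carry no test. ACLY and LIPE both had their highest level in lower dose 1, at 464 and 49.3 CPM. Neither these correlations nor the medians were repeated without that library.

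Other genes of lipid metabolism were taken from a wider list. Their count of calls cannot set them apart from the members, as 0% of all tested genes were called in each comparison. Of 32 further synthesis and regulatory genes 29 were tested and 0 were called in any comparison, with medians of 0.01, 0.02 and 0.00807 for the lower dose against control, the higher dose against control and the higher against the lower dose. At an unadjusted p under 0.05 there were 1, 0 and 1 of them (edgeR quasi-likelihood), against 6.08%, 2.35% and 5.64% of all genes. In the same order, 17, 21 and 16 of the 29 lay above 0, where 10, 17 and 18 of the 20 synthesis members did. The share higher without overlap was 6.9%, 3.45% and 6.9% (synthesis members 5%, 20% and 25%, all genes 5.1%, 3.81% and 5.85%). The share lower without overlap was 17.2%, 0% and 6.9% (synthesis members 0% in each, all genes 5.61%, 3.92% and 6.31%). Of 30 further breakdown genes 28 were tested and 0 were called, with medians of -0.00186, 0.000965 and 0.04 and with 1, 0 and 3 at an unadjusted p under 0.05 (edgeR quasi-likelihood). Above 0 lay 14, 15 and 17 of the 28. The share higher without overlap was 3.57% in each comparison, and the share lower was 3.57%, 3.57% and 14.3%.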

How the data were processed

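RNA from 9 libraries in 3 groups of 3 was sequenced by the submitters. The authors deposited raw counts per gene symbol and FPKM values for the same genes. Trimmomatic, HTSeq and DESeq are named for hg38 per the submitters' processing notes, and their versions, the aligner, the annotation and the strand setting were not given in the sources used here. For each gene, the ratio of counts to deposited FPKM was constant across libraries, apart from a factor common to all genes of a library. This held to within 1e-06 over the 11053 genes whose lowest count was at least 50. Libraries of a group differed beyond sampling noise (chi-square per degree of freedom from 2.17 to 8.19 over 9 pairs), so no pair was taken to be repeat deposits of 1 library. This does not show that the cultures were separate.

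Counts were filtered with filterByExpr (minimum count 10, minimum total 15; 12665 of 15983 genes kept), scaled by TMM and fitted in 1 model over all 9 libraries with edgeR 4.0.16 on R 4.3.3. The quasi-likelihood F-test is two-sided. Its p-values were adjusted by Benjamini-Hochberg across the 12665 genes, and genes under an adjusted p of 0.05 were called. CPM uses TMM-scaled totals. The SE is the absolute log2 fold change over the square root of F. Fold changes with a test are given for SREBF1, FASN, SCD and CPT1A in every comparison and for the 2 members of smallest p in each group of genes and comparison. LPIN1, LIPE and the other genes listed as free of overlap were named after their values were seen. The members and lists were chosen with earlier results of these data known. GC content is that of the longest coding transcript in GENCODE 29, present for 97.9% of tested genes, and its trend was a lowess curve per library (span 0.3) entered as an offset. Shared sequence was sought with blastn 2.17.0 at 97% identity over at least 100 bases. Correlations used all permutations of the 9 libraries.

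The fit was tested on simulated data with 200 changed genes a run and no GC trend between libraries. Of changes of 1.25-fold, 56.1% to 61.4% were recovered, depending on the comparison. The share was 85.1% to 85.3% at 1.5-fold and 92.6% to 92.7% at 2-fold. Alternatives were DESeq2 1.42.0, RLE factors, 2 other count filters, fits restricted to the groups compared, a replicate block, limma 3.58.1 on log2(FPKM + 1) and log2(FPKM + 0.1), leaving out each library, and removal of the GC trend, the last chosen after seeing the data. The counts of members without lower dose 1 were also added after seeing the data.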

Additional observations from a re-analysis of the deposited data

How the results depend on the processing

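The count of called members was 0 under every alternative run and with any library left out, with at most 7 of 36 at an unadjusted p under 0.05 (higher against lower dose, without lower dose 1, where 7.45% of all genes were). Over all genes, the fit without a count filter called 6, 3 and 4 genes for the lower dose against control, the higher dose against control and the higher against the lower dose. Leaving out a library gave 0 to 1 (1 without lower dose 3), 0, and 0 to 2 (2 without lower dose 1). The synthesis median minus the breakdown median ran from -0.086 to 0.012 for the lower dose against control and from 0.021 to 0.12 between the doses, with -0.086 and 0.12 reached without lower dose 1, and from -0.0047 to 0.051 for the higher dose against control.

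With the GC trend removed, SREBF1 turned to -0.020 at the lower dose against control and to 0.040 between the doses, and FASN to -0.044 at the lower dose. With a library left out, signs turned for FASN (-0.17 to 0.14 at the lower dose, -0.067 to 0.24 between the doses) and for CPT1A (-0.037 to 0.026 at the lower dose). SCD ran from -0.069 to 0.081 at the higher dose against control and SREBF1 from -0.061 to 0.019 between the doses. The cause was not tested, and none of these values passed adjustment in any fit.

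With the replicate number as a block, 0 genes and 0 members were called in each comparison, and 2, 0 and 3 members had an unadjusted p under 0.05, where 971, 343 and 891 of 12665 genes did. Same-numbered libraries of different groups had correlations of -0.0117 to 0.161 in their deviations from the group means, with 1 of 9 above 0.1. Pairs with other numbers ran from -0.111 to 0.0572, with 0 of 18 above 0.1. In 6 of 9 cases a library correlated best with its own number. These values do not settle whether the numbers pair the samples, and the main fit did not pair them. Depth limits DGAT2 most, at 24 to 47 counts a library.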

Other observations

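Among lipid genes outside the 36, FADS3, a relative of FADS1 and FADS2 on the same chromosome, was measured at 162, 169 and 189 FPKM (lowest, median and highest of the 9 libraries), above FADS2 at the median. SCD5, the second human stearoyl-CoA desaturase, stood at 11.7, 12.2 and 12.4 FPKM. PLIN3, a lipid droplet coat protein, reached 113, 115 and 125 FPKM, while PLIN2, the usual droplet coat of cells that are not adipocytes, had 32 counts over all 9 libraries and at most 8 in any of them. MLXIPL, the glucose-responsive lipogenic factor, had 14 counts over all libraries, and G0S2, the inhibitor of PNPLA2, stood at 46.5, 54.8 and 61.2 FPKM. INSIG1, which retains SREBP in the endoplasmic reticulum, was measured at 73.7, 88.4 and 99.4 FPKM. The annotation behind the counts is not known here, so the low counts of PLIN2 and MLXIPL do not show that these genes are silent in the cells. These genes were named after their values were seen.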
